A study of Mus musculus with 4 samples.

Results

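Interferon-induced gene families were followed on expression arrays of liver and white adipose tissue (WAT) from mice labelled Pnpla7-/- and from wild-type mice. A gene belonged to the set when its name in the array files began with one of the family stems Ifi (followed by a digit), Ifit, Ifih1, Oas, Oasl, Gbp, Irgm, Iigp, Isg, Mx, Rsad2, Usp18 or Irf (followed by a digit). This gave 65 genes on 92 probes, of 22328 genes on the array. The stems Irf and Isg also took in Irf2bp1, Irf2bp2 and Isg20l2, whose names match but which lie outside the families. Their ratios are given apart, but these 3 remain in all counts and medians over the members. The array's Gbp1 and Ifi27l1 are Gbp2b and Ifi27 in the current RefSeq table.

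PNPLA7 is a lysophospholipase of liver and fat, and the series as titled concerns the release of choline from phosphatidylcholine in liver. The groups were liver labelled Pnpla7-/-, liver of wild-type (Pnpla7+/+) mice, WAT labelled Pnpla7-/- and WAT of wild-type mice, all of the C57BL/6N strain at 4 weeks of age. Each group had 1 array of RNA from 5 animals, mixed in equal parts, so no difference has a replicate check and neither a test nor a p-value is given. Sex, fat depot and the deleted part of Pnpla7 are not given in the sources used here. The labels' extraction protocol names livers for all 4 samples.

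Interferons are secreted proteins that cells release when they sense viral or bacterial nucleic acid. Type I and type III interferons act through a transcription factor complex that includes IRF9 and binds an interferon-stimulated response element (ISRE), while interferon gamma acts through gamma-activated sites (GAS). The induced genes include many tandem families whose products block virus entry, bind or cut foreign RNA, or coat vacuoles that hold parasites and bacteria; liver and fat hold resident macrophages and lymphocytes that make and answer these signals.

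The number of arrays limits the precision. A level is given as log2 of the signal over the 75th percentile of its own array, so that 0 is a signal equal to that percentile, and a difference between arrays is a log2 ratio. Levels of different probes are not comparable with each other. Of the spots, between 65.5% and 72.6% were well above background, 0 were saturated, and 59 of the 65 genes had a probe above background on all 4 arrays. Ifi202b, Iigp1b, Oas1g and Oas1h were not above background on any array. As a guide to error, the scanner software's model gave a median error of 0.20 for a log2 ratio in both tissues, and different probes of 1 gene differed with a pooled SD of 0.20 in liver (4512 genes) and 0.23 in WAT (4746 genes). For the members themselves (18 genes with several measured probes) that SD was 0.20 in liver and 0.36 in WAT. None of these errors contains the spread between animals.

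The targeted gene does not settle the genotype labels in liver. Pnpla7, on 1 probe, had a level of 3.0 in liver labelled Pnpla7-/-, against 3.18 in wild-type liver, a log2 ratio of -0.18 that lies within the probe error. In WAT it had -1.43 in the array labelled Pnpla7-/- and -0.44 in the wild-type array, a ratio of -0.99. A probe outside the deleted part would check nothing, so the arrays are called by their labels throughout, and every direction rests on those labels. The tissue labels were checked with markers. In wild-type mice 5 of 5 hepatocyte markers were at least 2-fold lower in WAT than in liver (median -5.95), and the 3 adipocyte markers measured in both tissues were higher in WAT (median 5.89).

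The promoters show which letters these genes share, and they are printed here because interferons act through the ISRE and GAS sites named above. The members were chosen by name, and no response to interferon was used. RefSeq promoters (GRCm38.p6, from 250 bases before to 50 bases after each start) were matched to 45 of the 65 genes. The ISRE core, GAAA and GAAA parted by any 2 bases and searched on both strands, was found in 20 of these 45 genes (44.4%), against 3.99% of all 27025 genes in the table. The GAS core TTCNNNGAA, which reads the same on both strands, was found in 14 of 45 (31.1%), against 9.55% of all genes. Counted over promoters of the same 300 bases, the ISRE core was in 37.7% of the members' 53 promoters and in 3.44% of all 32851, and the GAS core in 26.4% and 8.3%. A match describes letters and is not evidence of a bound site. By family, among genes with a matched promoter, the ISRE core was in 5 of 5 guanylate-binding protein genes and 4 of 8 oligoadenylate synthetase genes. It was in 2 of 3 Ifit genes, 2 of 6 Ifitm genes and 1 of 8 Irf genes. The 5 Gbp genes, of 11 members, are those of the cluster on chromosome 3. The Gbp genes on chromosome 5 had no matched promoter. The 5 sequences below were chosen as 1 for each of these themes: Gbp1, the member with the lowest ratio in liver; Ifit1, Isg15 and Oas1a, classic interferon targets with several matches; and Ifitm1, the member with the highest ratio in WAT, which had no ISRE match in this window. Capitals mark the ISRE core on either strand, and overlapping matches run together.
Gbp1 (Gbp2b), chr3:142594597-142594896, plus strand: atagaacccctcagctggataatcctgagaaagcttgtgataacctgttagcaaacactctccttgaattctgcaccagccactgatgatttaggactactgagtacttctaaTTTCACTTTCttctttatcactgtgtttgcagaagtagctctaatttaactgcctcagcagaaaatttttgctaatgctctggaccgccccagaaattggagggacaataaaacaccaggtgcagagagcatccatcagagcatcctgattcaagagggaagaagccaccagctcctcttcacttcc
Ifit1, chr19:34640639-34640938, plus strand: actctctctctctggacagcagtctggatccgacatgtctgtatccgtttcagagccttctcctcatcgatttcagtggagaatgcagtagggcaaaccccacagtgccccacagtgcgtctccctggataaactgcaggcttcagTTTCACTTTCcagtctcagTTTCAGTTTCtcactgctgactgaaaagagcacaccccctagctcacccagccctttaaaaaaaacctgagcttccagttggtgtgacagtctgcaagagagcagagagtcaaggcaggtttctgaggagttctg
Isg15, chr4:156200769-156201068, minus strand: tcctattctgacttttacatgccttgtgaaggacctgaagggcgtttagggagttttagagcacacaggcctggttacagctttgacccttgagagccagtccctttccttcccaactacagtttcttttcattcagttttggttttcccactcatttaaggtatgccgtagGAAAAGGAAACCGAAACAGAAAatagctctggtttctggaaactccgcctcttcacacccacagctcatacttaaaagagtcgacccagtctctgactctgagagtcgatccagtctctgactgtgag
Oas1a, chr5:120907476-120907775, minus strand: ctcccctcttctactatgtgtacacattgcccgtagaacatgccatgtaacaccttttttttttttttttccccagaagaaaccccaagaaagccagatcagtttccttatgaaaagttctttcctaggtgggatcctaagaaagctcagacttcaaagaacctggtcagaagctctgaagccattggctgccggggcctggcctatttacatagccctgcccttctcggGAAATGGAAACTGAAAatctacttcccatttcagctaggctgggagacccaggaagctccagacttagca
Ifitm1, chr7:140967826-140968125, plus strand: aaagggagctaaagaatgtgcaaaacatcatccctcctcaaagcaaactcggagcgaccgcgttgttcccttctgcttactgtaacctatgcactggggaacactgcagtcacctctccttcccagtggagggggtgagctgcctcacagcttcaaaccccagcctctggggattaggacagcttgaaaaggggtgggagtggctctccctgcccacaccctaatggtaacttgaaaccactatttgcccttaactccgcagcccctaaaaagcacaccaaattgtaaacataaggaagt

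The first match began 137 bases before the start in Gbp1, 104 in Ifit1, 78 in Isg15 and 20 in Oas1a. The 2 probes for Ifitm1 (60 bases each, mm9, chr7:148155658-148155717 and chr7:148155659-148155718) share a run of 54 bases, so they are not independent readings. Their last 30 bases are shown with the shared run in capitals.
Ifitm1 first probe: ACTCAATAAAGTGCACGTGCTGTGAaaaaa
Ifitm1 second probe: CTCAATAAAGTGCACGTGCTGTGActttct

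In liver the interferon families differed little between the arrays, and the differences leaned below 0. Of 60 members measured on both liver arrays, 0 were at least 2-fold higher in the array labelled Pnpla7-/-, against 1.75% of all 15568 genes measured, and 1 was at least 2-fold lower, Gbp1, against 0.886%. In all, 53 of the 60 lay within 0.5 of 0 on the log2 scale, and the range was -1.39 (Gbp1) to 0.64 (Ifi27l2b). The median ratio of the members was -0.17 and that of all genes -0.03. Of the members, 44 (73.3%) were below 0, against 55.8% of all genes. With the background correction normexp the median of all genes itself moved to -0.19 and that of the members to -0.22, so the members then lay 0.03 below all genes, where the main scaling put them 0.13 below. The split of all genes at least 2-fold different in liver turned with that correction too, with 66.4% of them higher under the main scaling and 29.9% under normexp.

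In WAT the members reached further on the higher side than in liver. On the lower side the liver range was the wider through Gbp1 alone (-1.39), as Gbp6 came next there at -0.81. Of 60 members measured on both WAT arrays, 3 were at least 2-fold higher in the array labelled Pnpla7-/-, among them Ifitm1 and Gbp11, against 2.16% of all 16131 genes (2 were, Ifitm1 and Gbp11, with the brightest probe of each gene), and 0 were at least 2-fold lower, against 2.01%. The range was -0.92 (Oas2) to 1.78 (Ifitm1), and 46 of the 60 lay within 0.5 of 0. The members' median was -0.08 and that of all genes 0.02, with 36 members (60%) below 0, against 47.2% of all genes. Taken in both directions, 1.67% of measured members reached 2-fold in liver, against 2.64% of all genes, and 5% in WAT, against 4.18%. At a 1.5-fold limit 1 member was higher in liver (4.48% of all genes were) and 4 were lower (3.72%), and in WAT 4 were higher (6.19%) and 7 lower (7.57%). In a pool of tissue, fewer cells of a type and less RNA per cell cannot be told apart.

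**Figure D1:**
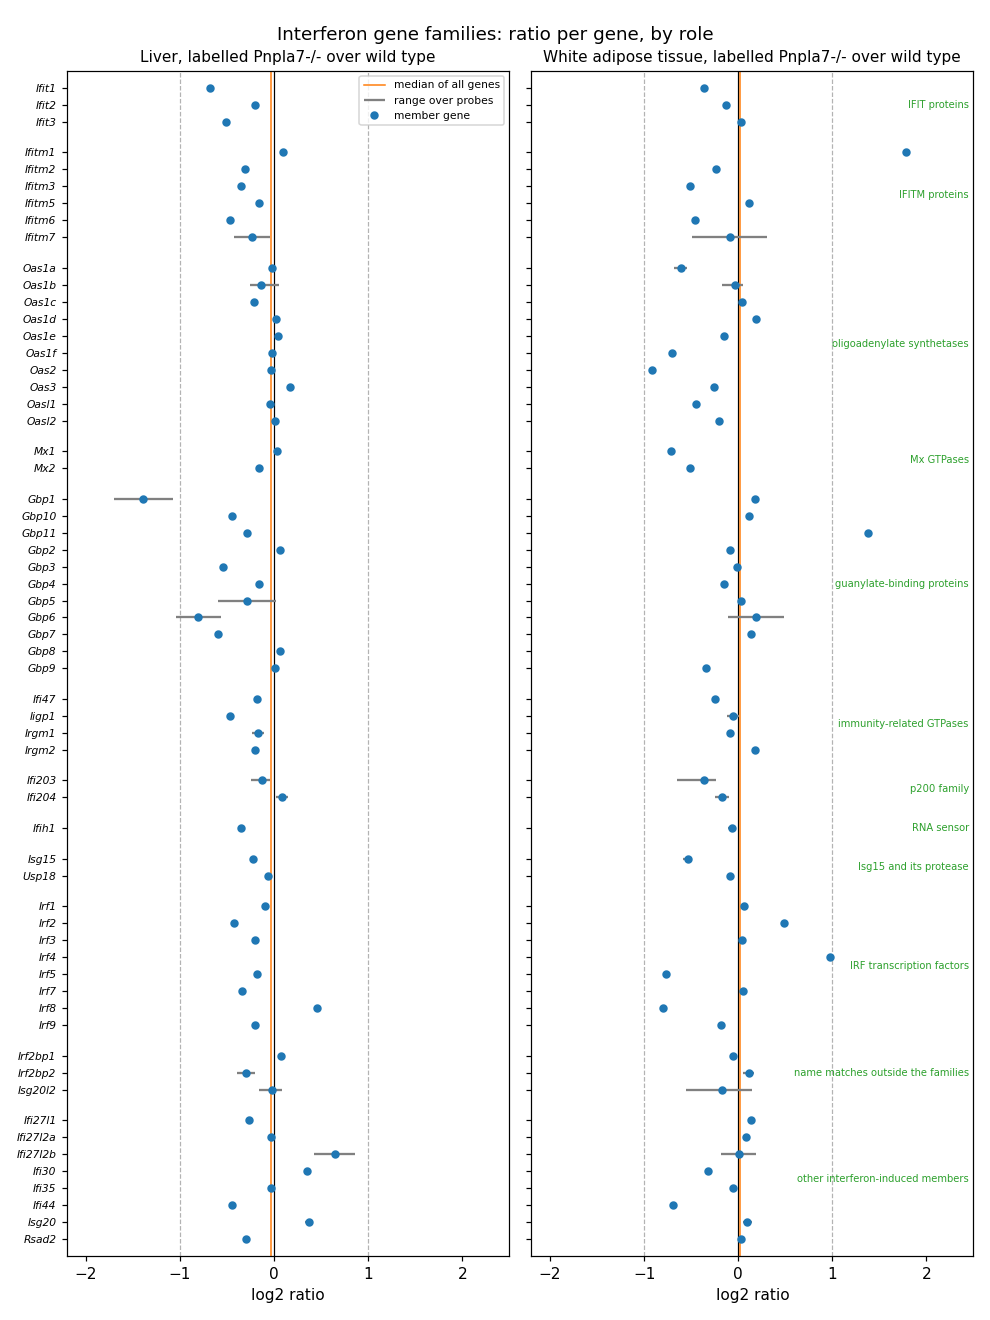
Log2 ratio of the array labelled Pnpla7-/- over wild type for measured member genes (points), grouped by role, in liver (left) and WAT (right); grey bars span the gene's measured probes, the orange line is the median of all genes and dashed lines mark 2-fold. In liver 1 gene, Gbp1, lies past a dashed line; in WAT Ifitm1 and Gbp11 do.

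The WAT pools differed in other markers as well, and these values belong beside every WAT result. The 5 of 5 skeletal muscle markers (Ckm, Acta1, Myh4, Tnnt3 and Pvalb) were higher in WAT labelled Pnpla7-/- (median ratio 4.66). Their summed level was 34.2 in that array and 2.37 in wild-type WAT, in multiples of the array's 75th percentile. Such sums are carried by the brightest probes, since levels of different probes are not comparable. Of 12 epithelial markers 9 were measured and all 9 were above 0, with a median of 0.92. Their summed level was 6.08 in the array labelled Pnpla7-/- and 2.67 in the wild-type array. Cldn3, a tight junction protein, was at 4.58. Among the WAT arrays, Epcam and Cdh1 were above background only in that labelled Pnpla7-/-, and Elf3 in neither. Cdh1 was above background in both liver arrays as well, and Epcam in the liver labelled Pnpla7-/-. Of 10 macrophage markers 9 were measured and 8 were below 0, with a median of -0.66. Their summed level was 5.81 in the array labelled Pnpla7-/- and 8.23 in wild-type WAT. The exception was Cd14, a co-receptor for bacterial lipopolysaccharide, at 1.46. Clec4f, a Kupffer cell lectin, was above background in wild-type WAT but not in WAT labelled Pnpla7-/-. In liver Clec4f had 3.03 in the array labelled Pnpla7-/- and 3.24 in the wild-type array. Of 5 hepatocyte markers 4 were below 0 in WAT (median -1.17) and 3 were at least 2-fold lower, Alb (-1.58) and Ttr (-1.62) among them. Cyp2e1 had a ratio of 0.97, with a level of 6.86 in the array labelled Pnpla7-/- and 5.89 in the wild-type array. The summed level of the list, 122.0 and 74.6 in those arrays, rests mostly on Cyp2e1. The 5 of 5 endothelial markers were below 0 (median -0.44; summed level 12.1 and, in wild-type WAT, 14.7). Of 5 adipocyte markers 4 were above 0 (median 0.17), while Lep, the hormone leptin, was at -1.99. The part of these cells in the WAT results was not tested. In liver the macrophage list had a median of -0.03, while 5 of 5 measured natural killer markers (median -0.62) and 5 of 5 neutrophil markers (median -0.78) were below 0.

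The guanylate-binding proteins are large GTPases induced mainly by interferon gamma that assemble on vacuoles and on bacteria in the cytosol. In liver 8 of 11 measured genes were below 0 (median -0.29), and in WAT 4 of 10 (median 0.07, or -0.01 when dim probes were kept). Gbp1 carried the one 2-fold difference in liver. Its first probe had a level of -4.60 in liver labelled Pnpla7-/-, against -2.90 in wild-type liver, and its second had -3.76 and -2.69. In WAT the same probes had -3.35 and -2.99 in the array labelled Pnpla7-/-, against -3.50 and -3.20 in the wild-type array. The liver labelled Pnpla7-/- was thus the lowest of the 4 arrays on both probes, while the WAT arrays lay close together. The probe ratios in liver were -1.71 and -1.07 (SD 0.45), and their mean of -1.39 is 2.62-fold lower. The WAT ratio was 0.18. Gbp6 came next in liver, at -0.81. Its probes, whose starts lie 2072 bases apart, had -2.03 and -1.21 in liver labelled Pnpla7-/-, against -1.46 and -0.17 in wild-type liver, and gave ratios of -0.57 and -1.05. Both Gbp6 probes were lower in liver, but in WAT they disagreed in sign, with -1.02 and -0.50 in the array labelled Pnpla7-/-, against -0.91 and -0.99 in the wild-type array.

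Gbp11 was the one Gbp gene past 2-fold in WAT. Its 1 probe had 0.65 in WAT labelled Pnpla7-/-, against -0.73 in wild-type WAT, and -0.37 in liver labelled Pnpla7-/-, against -0.08 in wild-type liver. The ratio was 1.38 in WAT (2.60-fold higher) and -0.29 in liver. Among the other measured Gbp genes in WAT, ratios ran from -0.34 (Gbp9, with -1.73 in the array labelled Pnpla7-/- and -1.38 in the wild-type array) to 0.19 (Gbp6). The genes lie in 2 clusters (mm9). The cluster on chr3:142181426-142300778 (Gbp5, Gbp7, Gbp3, Gbp1 and Gbp2) had a median of -0.54 in liver and 0.03 in WAT, and that on chr5:105443951-105752204 (Gbp8, Gbp9, Gbp4, Gbp10, Gbp6 and Gbp11) had -0.22 and 0.11. In the first cluster Gbp7 (-0.60 in liver) and Gbp3 (-0.54) stood beside Gbp1, whereas Gbp2 was at 0.06. Gbp2 had 0.03 in liver labelled Pnpla7-/- and -0.03 in wild-type liver. All 5 genes of that cluster had an ISRE core in the promoter window.

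**Figure D2:**
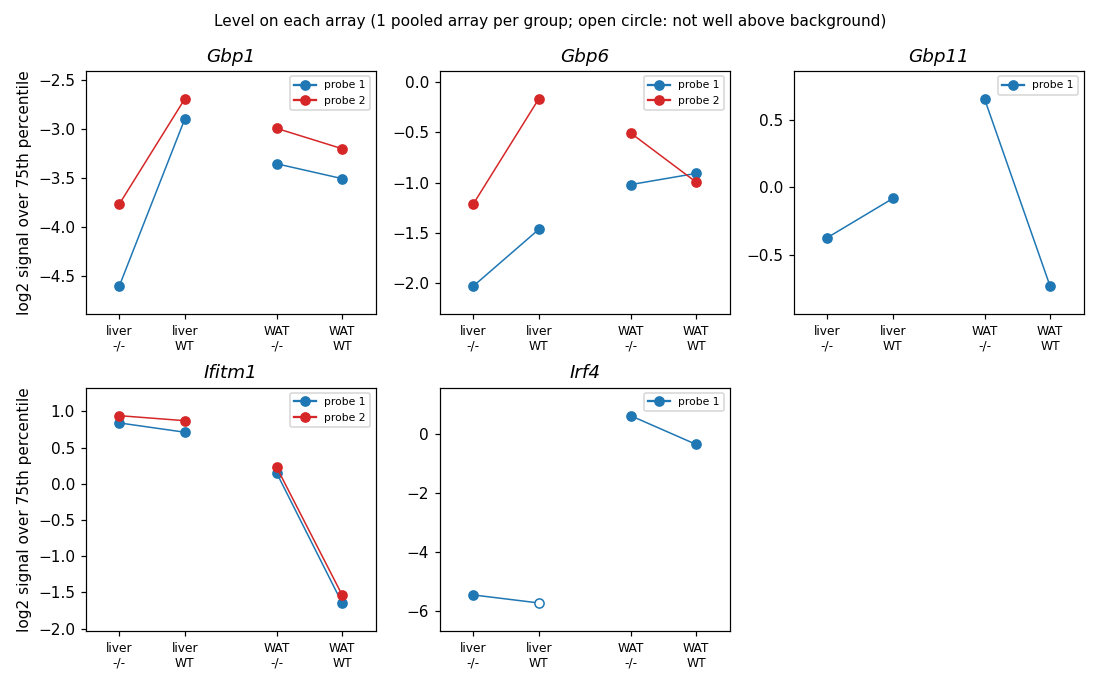
Level on each of the 4 arrays (log2 of signal over the array's 75th percentile) for 5 members past or near 2-fold; colours are different probes of the gene, lines join the 2 arrays of a tissue, and each point is 1 pooled array with no error bar. Both Gbp1 probes are lowest in liver labelled Pnpla7-/-, and both Ifitm1 probes are higher in WAT labelled Pnpla7-/- than in wild-type WAT.

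The immunity-related GTPases (Irgm1, Irgm2, Iigp1 and Ifi47), which guard or attack pathogen vacuoles, differed little between the arrays. All 4 measured genes were below 0 in liver, with a median of -0.20, and 3 of 4 were in WAT, with a median of -0.07. Iigp1 had the lowest liver ratio, -0.47, and its 2 probes had 2.44 and 1.58 in liver labelled Pnpla7-/-, against 2.93 and 2.03 in wild-type liver. Both probes of Iigp1 gave nearly the same ratio there, -0.49 and -0.45. In WAT the ratio of Irgm2 was 0.18 and that of Ifi47 -0.25, each within about the probe error.

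The IFIT proteins bind viral RNA that lacks the host's cap modifications. All 3 genes were below 0 in liver (median -0.51), and 2 of 3 were in WAT (median -0.13). Ifit1 had -1.70 in liver labelled Pnpla7-/-, against -1.02 in wild-type liver, a ratio of -0.68. In WAT it had -1.87 in the array labelled Pnpla7-/- and -1.51 in the wild-type array. Ifit3 gave -0.51 in liver and 0.03 in WAT, and Ifit2 gave -0.20 and -0.13. The 3 genes lie together on chr19:34650244-34723855 (mm9), and none reached 2-fold.

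The IFITM proteins sit in membranes and hinder fusion of enveloped viruses; Ifitm5 is known from bone-forming cells. Of 6 genes 5 were below 0 in liver (median -0.27), and 4 were in WAT (median -0.16). Ifitm1 stood apart in WAT. Its 2 overlapping probes had 0.15 and 0.23 in WAT labelled Pnpla7-/-, against -1.64 and -1.53 in wild-type WAT. In liver they had 0.84 and 0.94 in the array labelled Pnpla7-/-, against 0.71 and 0.87 in the wild-type array. Wild-type WAT was the lowest of the 4 arrays on both probes. The ratio was 1.78 in WAT (3.44-fold higher) and 0.10 in liver. Its cluster neighbours did not reach 2-fold. Ifitm3, on 10 spots of 1 probe, had 2.55 in WAT labelled Pnpla7-/-, against 3.06 in wild-type WAT, a ratio of -0.51. Ifitm2 had a WAT ratio of -0.24. Ifitm6, a member expressed in myeloid cells, had -0.46 in WAT and -0.47 in liver. The cluster on chr7:148135949-148451014 (mm9), which also holds Irf7, had a median of -0.32 in liver and -0.09 in WAT.

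The oligoadenylate synthetases make short adenylate chains that switch on RNase L. In liver their ratios lay between -0.22 (Oas1c) and 0.17 (Oas3), with 6 of 10 measured genes below 0 and a median of -0.02, which took the other sign (0.02) with the 75th percentile over detected probes. In WAT 8 of 10 were below 0, with a median of -0.23. Oas2 had 0.31 in WAT labelled Pnpla7-/-, against 1.23 in wild-type WAT, the lowest ratio of all members there (-0.92). In liver Oas2 had 0.71 in the array labelled Pnpla7-/- and 0.75 in the wild-type array. Oas1f (-0.70) and Oas1a (-0.61) followed in WAT, and Oas1d was the highest at 0.19. Of the 2 Oas1a probes, that with -0.68 in WAT matches the Oas1f probe at 41 of 58 aligned bases. These values are thus uncertain as readings of single genes, and cross-reading was not tested. The other Oas1a probe gave -0.54 in WAT. The 10 Oas genes on chr5:121180343-121371654 (mm9) include Oas1g and Oas1h, which were not measured; the 8 measured there had a median of -0.02 in liver and -0.21 in WAT.

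Further effectors act on viral replication or on proteins of the host. The Mx proteins are dynamin-like GTPases that block viral replication. Mx1 had -2.43 in liver labelled Pnpla7-/-, against -2.46 in wild-type liver, and -3.76 in WAT labelled Pnpla7-/-, against -3.04 in wild-type WAT. Mx2 had -0.72 and, in wild-type liver, -0.56, and in WAT -1.98 in the array labelled Pnpla7-/- and -1.46 in the wild-type array. Both genes were lower in WAT (ratios -0.72 and -0.52) and within 0.2 of 0 in liver, and neither reached 2-fold. Isg15, a ubiquitin-like modifier, had ratios of -0.22 in liver and -0.54 in WAT, and Usp18, the protease that removes it, -0.06 and -0.09. Ifi44 was below 0 in both tissues: it had -0.72 in liver labelled Pnpla7-/-, against -0.27 in wild-type liver, and -1.22 in WAT labelled Pnpla7-/-, against -0.53 in wild-type WAT. Rsad2 (viperin, which makes a chain-terminating nucleotide) had -0.30 in liver and 0.03 in WAT, and Isg20, an exonuclease, had 0.37 and 0.10.

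The Ifi27 genes, which encode small mitochondrial or nuclear membrane proteins, gave the highest member ratio in liver. Ifi27l2b had probe levels of -3.10 and 1.23 in liver labelled Pnpla7-/-, against -3.52 and 0.37 in wild-type liver, and its ratio was 0.64 in liver and 0.00 in WAT. Both probes were higher in liver, by 0.42 and 0.86. Its neighbours on chr12:104678353-104695423 (mm9) differed less, with liver ratios of -0.27 for Ifi27l1 and -0.04 for Ifi27l2a. Ifi30, a lysosomal thiol reductase of antigen processing, had 0.35 in liver and -0.32 in WAT, and Ifi35 had -0.03 and -0.05.

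Sensors and regulators of the response were also read. Ifih1 (MDA5), a sensor of long double-stranded RNA, had a ratio of -0.36 in liver and -0.07 in WAT, and both of its probes were below 0 in liver (-0.39 and -0.32). The p200 family, which binds DNA, had Ifi203 at -0.12 in liver and -0.37 in WAT and Ifi204 at 0.09 and -0.17. Ifi203 had 4 probes, all below 0 in both tissues. The 3 genes outside the families lay between -0.30 (Irf2bp2 in liver) and 0.11 (Irf2bp2 in WAT).

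The interferon regulatory factors are the transcription factors of this system, and several also have roles outside it. In liver 6 of 8 measured were below 0 (median -0.19), and in WAT 3 of 9 (median 0.05, or -0.01 with quantile normalization). Irf8, which directs myeloid cell development, had 0.74 in liver labelled Pnpla7-/-, against 0.28 in wild-type liver, and -0.66 in WAT labelled Pnpla7-/-, against 0.14 in wild-type WAT. Its ratio was the highest of the Irf genes in liver (0.45) and the lowest in WAT (-0.80). Irf5, active in macrophages, had ratios of -0.18 in liver and -0.77 in WAT, with -1.98 in WAT labelled Pnpla7-/- and -1.22 in wild-type WAT. These lower values of Irf5 and Irf8 in WAT stand beside the macrophage markers given above, whose median ratio in WAT was -0.66, and their part in the result was not tested. Irf2, a repressor that competes with Irf1, had 0.08 in liver labelled Pnpla7-/-, against 0.51 in wild-type liver, and 0.13 in WAT labelled Pnpla7-/-, against -0.36 in wild-type WAT. Its ratio was thus -0.42 in liver and 0.49 in WAT.

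Irf4, a factor of lymphocytes that is also active in fat cells, had 0.63 in WAT labelled Pnpla7-/-, against -0.35 in wild-type WAT, a ratio of 0.97, or 1.02 with quantile normalization. In liver it had -5.46 in the array labelled Pnpla7-/- and was not well above background in the wild-type array (-5.73). The lowest levels above background on those arrays were -6.06 and -5.85. The gap of 1.21-fold between these dim readings of 1 probe settles no direction.

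**Figure D3:**
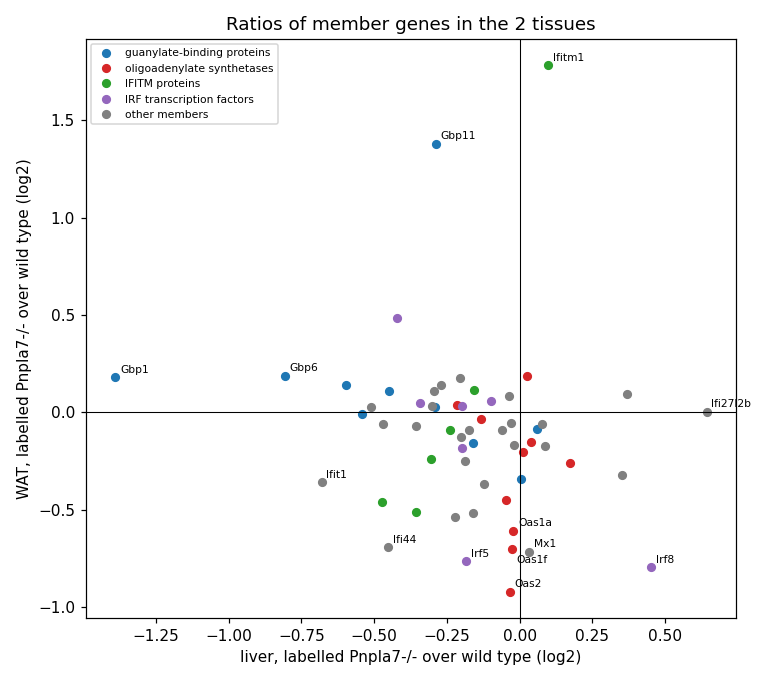
Log2 ratio of the array labelled Pnpla7-/- over the wild-type array in WAT (vertical axis) against the same ratio in liver (horizontal axis) for member genes measured in both tissues, coloured by role; each point is 1 gene and each ratio 1 pair of pooled arrays. Gbp1 lies far to the left near 0 on the vertical axis, Ifitm1 and Gbp11 lie high near 0 on the horizontal axis, and Irf8 is right of 0 and below 0.

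More members reached 2-fold between the tissues than between the genotype labels. Among the arrays labelled Pnpla7-/- 11 of 60 members (18.3%) were at least 2-fold higher in WAT than in liver, against 17.7% of all 15338 genes, and 17 (28.3%) were at least 2-fold lower, against 13.7%. The same comparison between the wild-type arrays gave 7 of 59 higher (11.9%, against 18.1% of all 15305 genes) and 15 lower (25.4%, against 15.6%). The members' median was -0.38 in the arrays labelled Pnpla7-/-, where that of all genes was 0.14, and -0.49 in wild type, where that of all genes was 0.04. At a 1.5-fold limit 11 members were higher in wild-type WAT (27.4% of all genes were) and 25 were lower (23.1%).

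Families differed in where they were higher. The immunity-related GTPases were lower in WAT in 4 of 4 measured genes (median -1.23 in wild type), the IFITM genes in 5 of 6 (median -1.38) and the oligoadenylate synthetases in 6 of 10 (median -0.57). Of all genes, 48% were below 0 in wild type and 42.4% in the arrays labelled Pnpla7-/-. The guanylate-binding proteins leaned the other way, mainly in the arrays labelled Pnpla7-/-. There 10 of 10 measured Gbp genes were above 0 (median 1.02). In wild type 6 of 10 were, with a median of 0.50 that was 0.00 when the brightest probe of each gene was used. The wild-type counts of the oligoadenylate synthetases and the Gbp genes lie near the split of all genes, so they are no result about those families. Gbp8 was above background in liver alone, with -3.24 in liver labelled Pnpla7-/- and -3.31 in wild-type liver, at least 5.77-fold and 7.99-fold above WAT. Of the single genes in wild type, Ifi27l2a was highest in WAT relative to liver (3.43, with 6.15 in WAT and 2.73 in liver), followed by Gbp2 (2.10), Gbp4 (1.59), Ifi27l1 (1.46) and Isg20 (1.44). Among the lowest were Ifi27l2b (-3.41), Iigp1 (-3.33), Usp18 (-2.39) and Ifitm1 (-2.38). Probes disagreed by more than 1 here for Gbp5, Gbp6, Ifi27l2b and Ifitm7, so those sizes are uncertain. Irf4 showed the widest gap of the members, with a log2 ratio of 6.09 in the arrays labelled Pnpla7-/- and a level at least 41.7-fold higher in WAT than in liver in wild type.

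**Figure D4:**
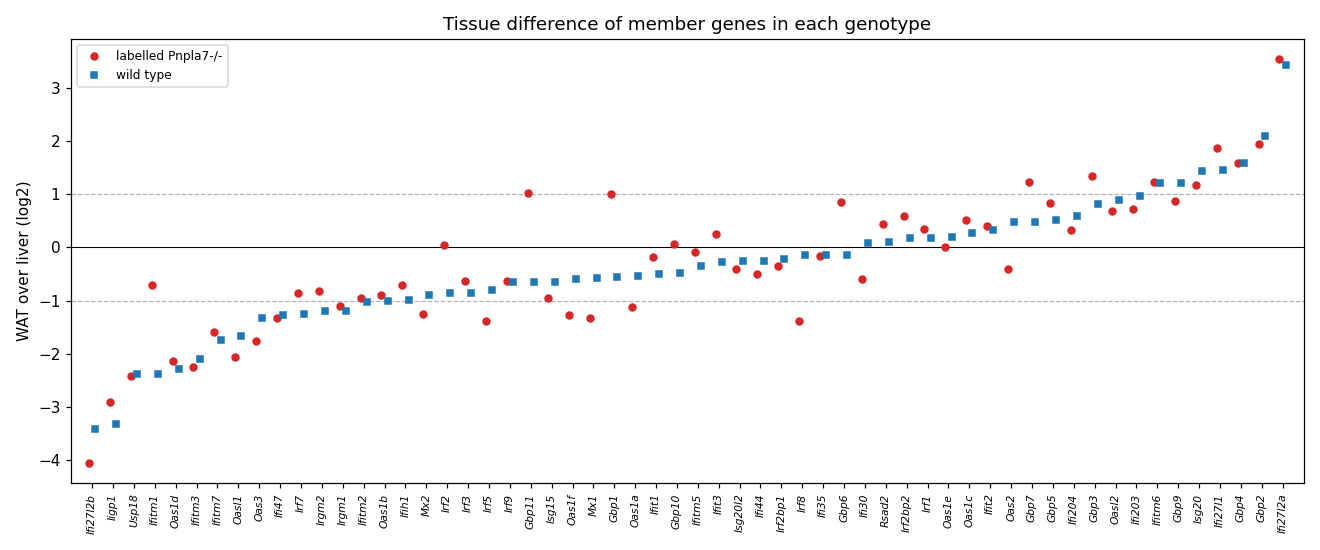
Log2 ratio of WAT over liver for member genes measured in both genotypes, with red circles for the arrays labelled Pnpla7-/- and blue squares for wild type, ordered by the wild-type value; dashed lines mark 2-fold and each point compares 2 pooled arrays. Ifi27l2a is highest and Ifi27l2b lowest in both, and the circle lies well above the square for Ifitm1, Gbp11 and Gbp1.

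The genes that start and carry the interferon signal were read from lists outside the families. Of 13 ligands (interferons and interleukins) 9 were measured in liver, with a median of -0.22 and 7 below 0, and 8 in WAT, with a median of 0.00 and 4 below 0. Ifnb1, Ifna4 and Ifne were not above background on any array. The measured interferons were dim, so their ratios are uncertain. Ifng, for example, had -5.05 in liver labelled Pnpla7-/- and -4.55 in wild-type liver. The lowest levels above background on those arrays were -6.06 and -5.85. Of 16 receptors and signalling genes, all measured, 0 reached 2-fold in liver (median 0.01), against 2.64% of all genes. In WAT 1 did (median -0.05), against 4.18% of all genes. That gene was Ifnlr1, the receptor of type III interferons, known from epithelial cells. It had -4.08 in WAT labelled Pnpla7-/-, against -5.44 in wild-type WAT, where the lowest level above background was -6.31. Its ratio was 1.36. The part of the epithelial markers in this value was not tested. Of 15 measured nucleic acid sensing genes 0 reached 2-fold in either tissue (medians 0.00 in liver and -0.09 in WAT), against the same shares. At those shares lists this short would hold few such genes, so these counts are no result about the lists.

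Other genes induced by interferon but named otherwise were read beside the families. Of 37 measured in liver, 1 was at least 2-fold higher, against 1.75% of all genes, and 1 lower, against 0.886%; the median was -0.01, with 19 below 0. In WAT 0 of 37 reached 2-fold, against 4.18% of all genes in both directions, and the median was -0.19, with 25 below 0. The lower one was Xaf1, a pro-apoptotic protein, whose 2 probes averaged -2.90 in liver labelled Pnpla7-/-, against -1.10 in wild-type liver, a ratio of -1.79. In WAT its ratio was -0.12, so both Xaf1 and Gbp1 were lower in liver and near 0 in WAT. The higher one, Ubd, on 1 probe, had 0.22 in liver labelled Pnpla7-/-, against -4.23 in wild-type liver, a ratio of 4.45. Its WAT ratio was 0.38. Of 24 antigen presentation genes 0 reached 2-fold in either tissue (medians -0.16 in liver and -0.03 in WAT), against 2.64% and 4.18% of all genes. Within that list the class II genes, H2-Aa, H2-Ab1, H2-Eb1, H2-DMa, H2-DMb1 and Cd74, picked out after their values were seen, were above 0 in liver, by 0.11 to 0.48, and below 0 in WAT, at -0.73 to -0.93. Irf8 and Ifi30 had the same pair of signs, and the macrophage values given above move with the WAT side; their part was not tested. Of the NF-kB and TNF targets, Ccl2, a monocyte chemokine, was at 1.03 in liver and -1.15 in WAT, and Cxcl1, a neutrophil chemokine, at -0.45 and 1.38; the list's medians were 0.34 over 13 genes in liver and -0.24 over 12 in WAT.

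The ratios were also set out by the ISRE core in the promoter. The 19 measured genes with a match had a median of -0.30 in liver, and the 22 without had -0.13. In WAT the medians were -0.07 for the 19 with and -0.13 for the 23 without. Both liver groups spanned wide and overlapping ranges, from -1.39 to 0.17 with a match and from -0.47 to 0.45 without. The genes with a match include neighbours of 1 cluster, such as the 5 Gbp genes on chromosome 3, so they are not independent readings.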

How the data were processed

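Total RNA of 4 pools was labelled with Cy3 and hybridised to 1-colour Agilent arrays, 1 per group. The deposited intensity of each spot is the processed signal of Agilent Feature Extraction 11.0.1.1, corrected for background, per the file headers (the submitters' processing notes name the same version). The authors' series table holds a linear ratio of that signal to 1 constant per array (1764, 1470, 1613 and 1690 for liver labelled Pnpla7-/-, wild-type liver, WAT labelled Pnpla7-/- and wild-type WAT; column medians 0.0751, 0.0737, 0.0875 and 0.0876), with no gene centring found. Its scale and direction were thus settled by comparison with the scanner files, and it served as an alternative.

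Levels were the log2 signal from which the log2 of the 75th percentile of each array's non-control spots was subtracted. Outlier spots were left out and the spots of a probe averaged. A probe entered a comparison if, on both of its arrays, over a 0.5 share of the spots stood well above background with 0 saturated. The ratios of a gene's measured probes were averaged. A gene counted as different at 2-fold. A gene above background on 1 array of a pair was given a lower bound against the higher of the dim probe's own level and the lowest level above background on that array. Probe positions are on mm9 and other names came from RefSeq (GRCm38.p6), which named 75 member probes by accession and 16 by symbol, with 1 left as in the file. The steps were tested on simulated data. Tools were Python 3.11.15, pandas 2.3.3, numpy 2.4.6, R 4.3.3 and limma 3.58.1.

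The members, roles and lists were chosen with earlier results of these data known, and the epithelial list was added after the values were seen. The genes given with levels were the members past 2-fold, otherwise the highest and lowest of each role, the 5 highest and 5 lowest for WAT over liver, and up to 4 of each other list; further ones were chosen after their values were seen. Alternatives were normexp (offset 50), quantile normalization, a 75th percentile over detected probes, the authors' table, the brightest probe, no filter on dim probes, outlier spots kept and a 1.5-fold limit. Some results that met these rules are not reported here, while counts and medians are over all members.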

Additional observations from a re-analysis of the deposited data

Results flagged for a closer look

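In 4 members the ratio of the array labelled Pnpla7-/- over the wild-type array had opposite signs in WAT and in liver, each beyond the SD between probes over all genes (0.23 in WAT and 0.20 in liver). The value of Ifi30 in WAT lies within the members' own SD between probes there (0.36). Given as the WAT ratio minus the liver ratio, the gap was 1.67 for Gbp11 (1.38 in WAT and -0.29 in liver), 0.91 for Irf2 (0.49 and -0.42), -0.67 for Ifi30 (-0.32 and 0.35) and -1.25 for Irf8 (-0.80 and 0.45). With 1 array per group these differences between tissues were not tested, and each of the 4 genes rests on 1 probe.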

How the results depend on the processing

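The medians of the members in the 3 comparisons moved by less than the SD between probes under each scaling, probe and filter alternative run. That SD (0.20 in liver, 0.23 in WAT and 0.67 for WAT over liver in wild type) is of single genes. It exceeds the size of each median (-0.17, -0.08 and -0.49), so this check could not show the loss of a lean. In liver the members' median minus that of all genes was -0.13 under the main scaling and -0.03 under normexp. The counts of members past the fold limit moved by over 1.5 times in a few places. With the brightest probe 2 members were at least 2-fold lower in liver, as Gbp6 (-1.05) joined Gbp1. The count at least 2-fold higher in WAT went from 3 to 2 with it, a move of no more than 1.5 times. At a 1.5-fold limit 1 member was higher and 4 were lower in liver, 7 were lower in WAT, and 11 were higher and 25 lower in WAT than in liver in wild type. Searched on 1 strand, the ISRE core was in 11 genes, where both strands gave 20. Irf4 in WAT passed 2-fold with quantile normalization (1.02). For WAT over liver in wild type, normexp put the median of all genes at -0.21, where the main scaling gave 0.04, and the share of higher genes among those past 2-fold at 43.4%, where it gave 53.8%; the percentile over detected probes moved that median to 0.14. In liver, members below 0 numbered from 38 with the percentile over detected probes to 47 with normexp, of 60. Leaving out a replicate was not possible with 1 array per group. No paired analysis was possible because each group had 1 array. Signal over background limits the 4 members not above background on any array and the lower bounds for Irf4 and Gbp8.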

Other observations

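Another 15 genes, on 26 probes, carry a family name in the current RefSeq table but an older name in the array files, so they are no members. Their values, chosen after they were seen, are given without explanation. Ifi44l, next to Ifi44 on chromosome 3, was not above background in liver labelled Pnpla7-/- (-8.00) and had -3.21 in wild-type liver, so it was at least 7.24-fold lower. In WAT it was not above background in the array labelled Pnpla7-/- (-7.67) and had -4.67 in the wild-type array, so it was at least 2.14-fold lower there. Ifit3b, in the Ifit cluster, had liver ratios of -0.61 and -0.72 on its 2 probes, beside -0.51 for Ifit3, and WAT ratios of 0.10 and -0.37. Of the p200 family, Ifi206 had WAT ratios of -0.77 and -0.56 and Ifi211 of -0.63, beside -0.37 for Ifi203.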
